A study of Oryza sativa with 20 samples.

Results

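S3 is the third of 5 stages of leaf development, S1 to S5. By group means, these 150 rice genes stood higher at S3 than at S1, S4 and S5, in the lamina joint (LJ) and in the blade alike. They were taken from 37829 rice gene IDs by a score chosen on measured levels. For each tissue, the S3 mean of log2(FPKM + 1) was set against the highest of the S1, S4 and S5 means, and the smaller of the 2 tissue differences was the score of the gene. FPKM are fragments counted per transcript, divided by its length and by the size of the library. The 150 highest scores were kept. Because the genes were chosen by the S1, S3, S4 and S5 levels of these same libraries, their values are given as a description without a test. S2 was not used, so the LJ minus blade difference at S2 is the only one tested. It is not independent of the choice either, for reasons given with it.

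The LJ groups at S1, S2, S3, S4 and S5 and the blade groups at the same stages came from the first complete leaf of Oryza sativa seedlings. Each of the 10 groups held 2 libraries. The cultivar is not given in the labels, all plants were grown in water under the same light and dark cycle, and leaf pieces were collected on days 4, 5, 6, 7 and 9 after germination. The labels name the stage of a library and not its day, and they do not tell whether replicates were separate plants. Unless stated otherwise, p-values here reflect how far libraries of the same group lay apart, taken over all 10 groups and drawn towards the spread of other genes. They do not reflect the spread of the S2 groups alone, and the spread may be technical.

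The lamina joint is the hinge between leaf sheath and leaf blade, and how far it bends sets the angle of the leaf to the stem. A grass leaf matures from its tip to its base: cells divide first, then elongate and lay down primary walls, and later thicken their walls and build chloroplasts. Genes used during elongation and wall building are often expressed for a short time only. The files give IDs without names, the RefSeq gene table at hand carries an ID of this kind in 1 of 39387 entries, and none of the 150 was on any of the pathway lists used here. The genes are therefore described by ID, level, timing and position, and no role is given to them.

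Both pieces were bulk tissue, so fewer cells of a type and less RNA per cell cannot be told apart in any value below. Marker genes moved with tissue and stage. Markers of dividing cells summed to 418 to 575 FPKM in LJ and 125 to 149 FPKM in blade at S2, and were called higher in LJ in 9 of 9. The longer cell cycle list that holds these markers had 10 genes called higher and 1 called lower of 11. Green mesophyll markers were called lower in LJ in 5 of 7 at S2, with sums of 893 to 2370 FPKM in LJ and 3560 to 15059 FPKM in blade. Secondary wall markers were called lower in LJ in 5 of 6, with sums of 5.70 to 6.11 FPKM in LJ and 50.7 to 106 FPKM in blade. Of the leaf boundary markers 1 of 2 was called higher in LJ (15.1 to 16.4 FPKM against 3.19 to 5.10 FPKM in blade), and of the stomatal lineage markers 2 were called higher and 1 lower of 3 (15.6 to 16.2 against 16.1 to 16.9 FPKM). Shoot meristem markers stayed under 1 FPKM in sum in every S2 library, 0 of 3 tested were called in this limma fit or reached an unadjusted p under 0.05, and no marker on these lists was at 0 in all 4 S2 libraries. The part of these cell types in the results was not tested. The 2 blade libraries at S2 stood apart from each other, and several of the counts and medians below are given without one of them as well.

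All 150 genes were at 1 FPKM or more in every one of the 4 S3 libraries and passed the filter on low values, at least 1 FPKM in 2 libraries or more, which 26403 IDs passed. The scores ran from 1.60 to 4.48 on the log2(FPKM + 1) scale, with a median of 2.02. The last genes inside were OS02G0833975 and OS02G0647900, at 1.6045 and 1.59516. The first outside were OS01G0785400, which is GH3-1, an enzyme that joins auxin to amino acids, and OS04G0644433, at 1.59451 and 1.59121. The score thus falls off with no step at the end of the set, and the next 150 genes by score had a median of 1.36. Of the tested genes, 2771 (10.5%) had any score above 0. LJ set the score, as the tissue with the smaller difference, in 62 genes and blade in 88.

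**Figure D1:**
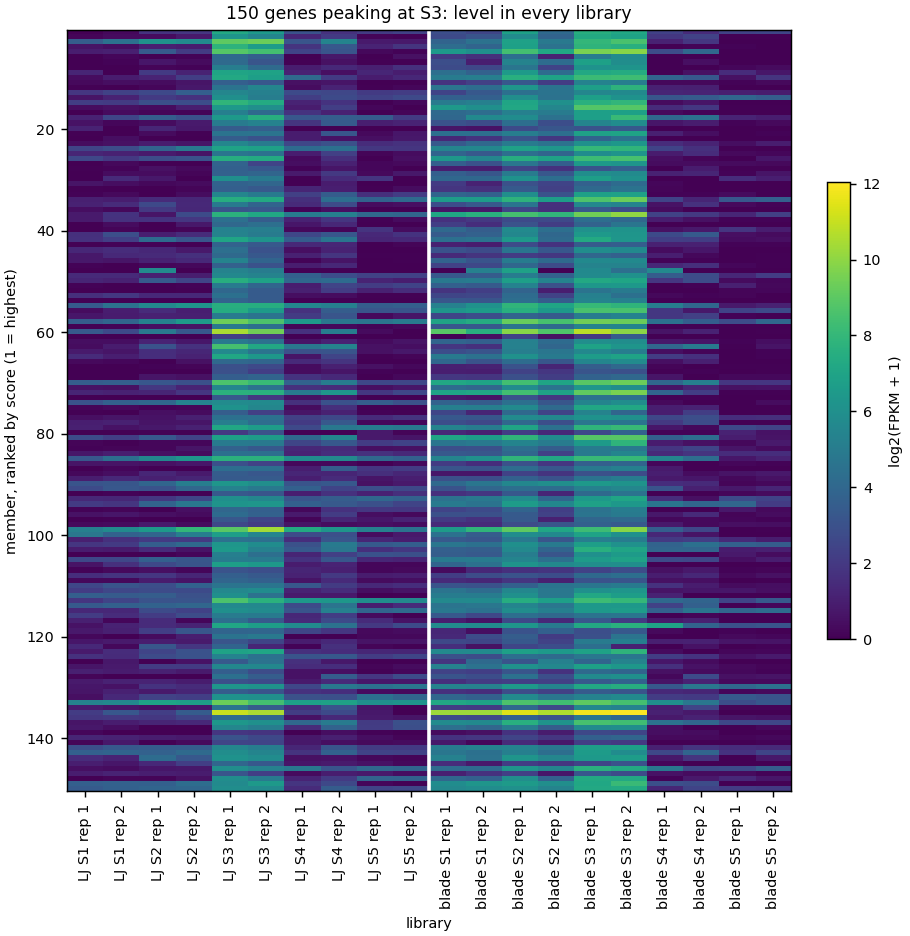
Level of each of the 150 genes (rows, ranked by score) in each of the 20 libraries (columns, LJ at left, blade at right, S1 to S5 in order), as log2(FPKM + 1) in colour. Both S3 columns of each tissue are bright; the blade columns are already raised at S1 and S2, the LJ columns are not.

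In LJ the genes were near the lower end of the scale until S2, high at S3 and low again at S4. In each LJ library the median gene was at 0.645 and 0.831 FPKM at S1, at 1.29 and 1.06 FPKM at S2, at 34.8 and 23.8 FPKM at S3, at 1.51 and 3.14 FPKM at S4, and at 0.621 and 0.626 FPKM at S5. In blade the median gene was at 9.28 and 9.16 FPKM at S1, at 32.2 and 14.5 FPKM at S2, at 58.3 and 58.3 FPKM at S3, at 0.893 and 0.877 FPKM at S4, and at 0.142 and 0.192 FPKM at S5. The LJ genes therefore stood low on both sides of S3, while in blade they were well above the floor from S1 on and ended lower.

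The genes made up 1.51% and 1.18% of the FPKM total of the LJ libraries at S3, against 2.1% and 2.51% of the blade libraries. At S2 they made up 0.0936% and 0.114% in LJ and 1.24% and 0.689% in blade. At S4 the shares were 0.115% and 0.155% in LJ and 0.0790% and 0.0537% in blade. At least 1 FPKM in both libraries was reached by 50, 72, 150, 90 and 57 of the genes in LJ at S1 to S5, and by 134, 144, 150, 59 and 26 in blade. In LJ, 9 genes at S1, 9 at S2, 5 at S4 and 12 at S5 were listed at 0 in both libraries. In blade, none was at S1 and S2, 13 were at S4 and 31 at S5. Differences on the log2(FPKM + 1) scale understate the change of genes this low.

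**Figure D2:**
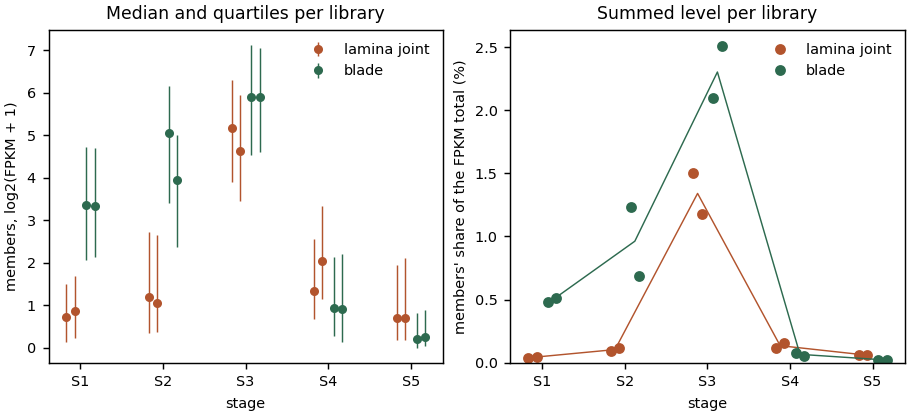
Left, median (point) and quartiles (bar) of the 150 genes in each library, in log2(FPKM + 1), by stage; right, their share of the FPKM total of each library in percent, with lines through the group means. LJ libraries (left of each pair, 2 per stage) climb in 1 step at S3, while blade libraries are raised from S1 and fall below LJ at S4 and S5; the 2 blade libraries at S2 lie apart.

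The rule left S2 out, so the label of an S3 peak was checked against it. The S2 mean was below the S3 mean in all 150 genes in LJ and in 149 in blade, and both S2 libraries lay below both S3 libraries in 148 genes in LJ and 132 in blade, against 40.5% and 26.2% of tested genes. The S3 side of these counts was chosen to be high, so nothing is read from them. The exception by means was OS03G0642300, named here after its values were seen, with 7.11 and 12.1 FPKM at S2 and 6.48 and 8.92 FPKM at S3 in blade. In LJ the S2 and S3 libraries overlapped in OS02G0106933, which was listed at 0 in 1 of 2 LJ and 1 of 2 blade libraries at S2 and at 54.9 and 115 FPKM in the others, and in OS09G0367700, whose LJ libraries at S3 read 13.9 and 1.48 FPKM. With S2 added to the rule as a further stage to be exceeded, 99 of the 150 were again among the 150 highest.

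As a further description, the S3 level was read in a library left out of the choice. The rule was applied 4 times, each time without 1 S3 library, and the library left out was set against the S1, S4 and S5 means of its tissue. Without LJ replicate 1, 150 of the 150 genes chosen were above all of these means in that library, by a median of 2.62. Without LJ replicate 2 it was 147 of 150, with a median of 1.98. For blade replicates 1 and 2 it was 150 and 149 of 150, with medians of 2.14 and 2.16. Of all tested genes, 21.6%, 21.8%, 18.0% and 20.5% were above the same means in these libraries. The reading is not independent of the choice. The S1, S4 and S5 values are the same in both, and the S3 library of the same number in the other tissue, whose deviations go with those of the library left out (r = 0.662 across genes), stayed in the choice.

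The shoulders of the peak differed between the tissues. The second highest of the stages used was S4 in 96 genes, S1 in 32 and S5 in 22 in LJ, but S1 in 143, S4 in 5 and S5 in 2 in blade. The median gene in LJ was 3.73 higher at S3 than at S1, 3.39 higher than at S2, 2.63 higher than at S4 and 3.58 higher than at S5, on the log2(FPKM + 1) scale. In blade these differences were 2.25, 1.43, 4.35 and 5.23. The 1.43 of S3 over S2 in blade was 1.91 without blade replicate 1 at S2 and 0.89 without replicate 2. The median gene thus differed more between S3 and the earlier stages in LJ, and more between S3 and the later stages in blade.

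How much of the climb had taken place by S2 was taken as the share of the S1 to S3 difference in log2(FPKM + 1) that the S2 mean had covered. The median share was 7.34% in LJ (quartiles 0.134% and 21.2%) and 39.2% in blade (quartiles 23.4% and 52.3%). More than 50% was covered by 8 genes in LJ and 47 in blade: 41 in blade only, 6 in both tissues, 2 in LJ only and 101 in neither. This split was taken with every library only. The blade values hang on 1 library: without blade replicate 1 at S2 the median share was 15.5% and 22 genes were past 50%, and without replicate 2 it was 63.1% and 113 genes. In LJ the median share was 8.53% and 7.17% without S2 replicates 1 and 2, with 12 and 4 genes past 50%. With respect to stage order across tissues, the median gene stood 0.61 higher in LJ at S3 than in blade at S2 and 1.73 lower in LJ at S2 than in blade at S1. The first of these differences was 1.07 without blade replicate 1 at S2 and 0.05 without replicate 2, and the second was −1.77 to −1.74 with any 1 of its libraries left out.

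At S2, whose levels the rule did not use, the genes were lower in LJ than in blade nearly throughout. The S2 difference is still not independent of the choice. At S1, which the rule used, 148 of the 150 means were already below blade, with a median difference of −2.32. The spread was also taken over groups that the rule used. Of the 150, 129 were called lower in LJ (86%; limma, Benjamini-Hochberg adjusted p under 0.05 over 26403 genes), against 12.4% of all tested genes, and 0 were called higher, against 10.5%. Calls in either direction took in 22.9% of tested genes. None of the genes was higher in LJ at an unadjusted p under 0.05 either. By the group means 148 were lower in LJ, and in 137 (91.3%) both LJ libraries lay below both blade libraries, against 31.1% of tested genes. In 0 of the 150 genes were both LJ libraries above both blade libraries, against 27.2% of tested genes. The median difference was −2.64 on the log2(FPKM + 1) scale, with quartiles of −3.92 and −1.62 and a range of −8.17 to 0.84, while the median over all tested genes was −0.02 and the median SE of a gene 0.44. Of the 150, 128 were called and lower in LJ by at least 1 on that scale (85.3%), against 10.6% of tested genes.

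With LJ and blade libraries of the same number taken as pairs, 138 were called lower in LJ and 0 higher, against 21.7% and 17.9% of tested genes (39.5% in either direction). The count rests on 2 libraries a group. With 1 library left out at a time, the median difference ran from −3.33 to −2.03. When the 4 S2 libraries alone gave the spread, 38 were called. The share of all tested genes called in that fit was not taken, so the 38 cannot be set against it.

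**Figure D3:**
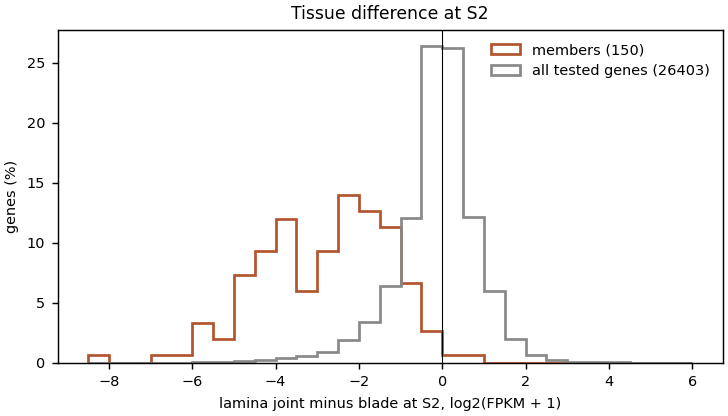
LJ minus blade at S2, the stage not used to choose the genes, on the log2(FPKM + 1) scale: percent of the 150 genes (orange) and of all 26403 tested genes (grey) in bins of 0.5. The 150 genes spread from −8.17 to 0.84 around a median of −2.64, all tested genes lie around −0.02.

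The S2 difference was not particular to the first 150 genes. Of the next 150 by score, 110 were called lower in LJ at S2 (73.3%) and 1 higher, with a median difference of −1.61. In the fit on every library, the 129 called genes of the set had a median mean of 1.00 FPKM in LJ and 26.3 FPKM in blade at S2. The 21 that were not called had a median of 8.64 FPKM in LJ and 14.6 FPKM in blade, and their differences ran from −1.92 to 0.84 with a median of −0.79. Of these 21, 6 had an unadjusted p under 0.05.

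The 2 genes whose mean was higher in LJ at S2 are named for that reason, after their values were seen. OS06G0137400 read 15.2 and 39.1 FPKM in LJ and 21.0 and 8.23 FPKM in blade, a difference of 0.84 ± 0.51 (SE) with overlapping libraries (limma, adjusted p = 0.27). OS04G0554800 read 72.0 and 55.7 FPKM in LJ and 117 and 28.1 FPKM in blade, a difference of 0.13 ± 0.67 (SE; limma, adjusted p = 0.94), whose sign changes with the library left out. At S3, OS04G0554800 stood at 529 and 638 FPKM in LJ and at 248 and 382 FPKM in blade, higher in LJ without overlap.

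The median tissue difference was below 0 up to S3 and above 0 at S4 and S5. At S1 the median gene was 2.32 lower in LJ on the log2(FPKM + 1) scale, with 148 of 150 means below blade. At S3 it was 0.78 lower: 125 means were below blade and 25 above, and the libraries did not overlap in 98 genes below and 13 above, against 22.2% and 39.1% of tested genes. At S4 it was 0.56 higher in LJ, with 115 means above blade and 32 below, and 73 genes in which both LJ libraries were above both blade libraries, against 33.6% of tested genes. The S4 median was 0.27 without LJ replicate 2 and 0.81 without LJ replicate 1. At S5 it was 0.20 higher, with 114 means above and 26 below. With every library, the median over all tested genes was −0.03, 0.17, 0.23 and 0.15 at these 4 stages. On this scale the S5 difference, and the S4 difference without LJ replicate 2, were close to those of all genes. At S5 the median gene was near the floor, and with a pseudocount of 0.1 the S5 difference was 0.75. The value over all genes was not taken with that pseudocount. These stages were used by the rule and the differences were not tested. The largest of the 10 group means was blade S3 in 125 genes and LJ S3 in 25.

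The gene with the largest S2 difference was also the most abundant at S3. OS10G0150400, on chromosome 10 by its ID, read 3.47 and 8.57 FPKM in LJ at S1, 3.76 and 10.1 FPKM at S2, 2048 and 1452 FPKM at S3, 3.55 and 5.58 FPKM at S4, and 0.684 and 0 FPKM at S5. In blade it read 1215 and 1243 FPKM at S1, 2804 and 1559 FPKM at S2, 3590 and 4176 FPKM at S3, 1.17 and 0.749 FPKM at S4, and 0 in both libraries at S5. It was high at S3 only in LJ and from S1 to S3 in blade, and low in both tissues afterwards. The S2 difference was −8.17 ± 0.45 (SE; limma, adjusted p = 1.15e-07), with no overlap.

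OS02G0616100, the second most abundant gene at S3, had the same course. It read 9.42 and 5.52 FPKM at S1, 27.9 and 9.04 FPKM at S2, 1470 and 691 FPKM at S3, 2.31 and 34.2 FPKM at S4 and 0.279 and 0 FPKM at S5 in LJ. Its blade libraries read 470 and 192 FPKM at S1, 961 and 421 FPKM at S2, 1763 and 987 FPKM at S3, 0.577 and 1.19 FPKM at S4 and 0 and 0.0435 FPKM at S5. The LJ replicates at S4 lay far apart, while the tissues did not overlap at S2, where LJ was lower by a log2 difference of −5.22 ± 0.86 (SE; limma, adjusted p = 0.00071).

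OS06G0148200 had the second largest S2 difference and kept a level in LJ after the peak. It read 0.824 and 2.35 FPKM at S1, 0.582 and 5.67 FPKM at S2, 211 and 141 FPKM at S3, 30.7 and 36.4 FPKM at S4 and 15.6 and 14.3 FPKM at S5 in LJ. Blade libraries stood at 143 and 199 FPKM at S1, 356 and 243 FPKM at S2, 689 and 1046 FPKM at S3, 4.18 and 2.99 FPKM at S4 and 1.43 and 3.79 FPKM at S5. LJ libraries lay below blade from S1 to S3 and above blade at S4 and S5, with no overlap at any stage. The S2 difference was −6.50 ± 0.55 (SE; limma, adjusted p = 3.91e-06).

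OS05G0503650 had the highest score, 4.48. It read 0 and 0.210 FPKM at S1, 2.40 and 2.71 FPKM at S2, 150.2 and 89.2 FPKM at S3, 7.29 and 2.33 FPKM at S4 and 3.25 and 3.97 FPKM at S5 in LJ. In blade it read 6.48 and 4.78 FPKM at S1, 112 and 16.5 FPKM at S2, 182 and 147 FPKM at S3, 4.01 and 1.74 FPKM at S4 and 4.24 and 4.75 FPKM at S5. Its S2 level in blade depends on the library, and both blade libraries still lay above both LJ libraries, with a difference of −3.64 ± 0.64 (SE; limma, adjusted p = 0.00119). It was −2.30 without blade replicate 1 and −4.99 without blade replicate 2. When the 4 S2 libraries alone gave the spread, it was not called (limma, adjusted p = 0.103).

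OS05G0163300, next with a score of 4.17, read 0.123 and 0.286 FPKM at S1, 0.282 and 0.755 FPKM at S2, 74.9 and 44.1 FPKM at S3, 1.51 and 3.18 FPKM at S4 and 0.120 and 0.0916 FPKM at S5 in LJ. The blade values were 5.47 and 7.73 FPKM at S1, 55.3 and 13.1 FPKM at S2, 156 and 123 FPKM at S3, 2.85 and 4.16 FPKM at S4 and 0.0543 and 0.0449 FPKM at S5. Unlike OS05G0503650, it was near 0 in both tissues at S5. The S2 difference was −4.23 ± 0.49 (SE; limma, adjusted p = 4.5e-05).

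At the end of the set, OS02G0833975 read 53.6 and 87.3 FPKM in LJ and 141 and 284 FPKM in blade at S3, and 12 and 18.7 FPKM in LJ and 92.7 and 60.1 FPKM in blade at S2, a difference of −2.24 ± 0.37 (SE; limma, adjusted p = 0.000798). OS02G0647900 read 58.8 and 53.9 FPKM in LJ and 154 and 163 FPKM in blade at S3. Its S2 difference of −1.76 ± 0.50 (SE; limma, adjusted p = 0.0201) was no longer called without either LJ library or without blade replicate 1 at S2, at −1.69, −1.84 and −1.44. Just outside, OS04G0644433 was far more abundant, with 3543 and 3608 FPKM in LJ and 6704 and 5681 FPKM in blade at S3, and with a blade S2 library of 7039 FPKM above both.

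GH3-1, the other gene just outside, had nearly equal means in LJ and blade at S2. It read 1.15 and 0.785 FPKM at S1, 1.76 and 3.05 FPKM at S2, 7.57 and 4.98 FPKM at S3, 0.552 and 0.856 FPKM at S4 and 0.221 and 0.0954 FPKM at S5 in LJ. In blade it read 0.950 and 0.298 FPKM at S1, 2.39 and 2.09 FPKM at S2, 3.75 and 3.85 FPKM at S3, 0.136 and 0 FPKM at S4 and 0 in both libraries at S5. The S2 difference was 0.04 ± 0.24 (SE; limma, adjusted p = 0.94), and its LJ libraries at S3 were above those of blade. The member OS01G0785500 is the next ID on the chromosome.

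**Figure D4:**
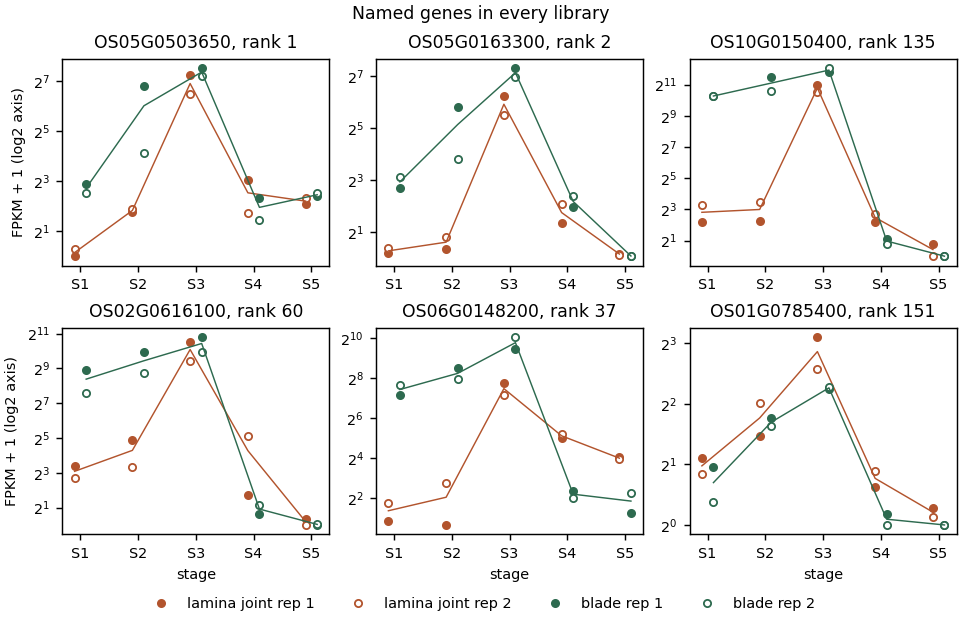
FPKM + 1 on a log2 axis by stage for 5 of the 150 genes and for OS01G0785400 (GH3-1), the first gene outside; filled and open points are replicates 1 and 2, lines join group means, LJ orange and blade green. In the 5 genes LJ lies further below blade at S2 than at S3; in GH3-1 the tissues overlap at S2.

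Position was not used by the rule. By ID, 42 of the 150 genes (28%) stood next to another of the set, in 19 runs: 16 of 2 IDs, 2 of 3 and 1 of 4. Among the next 150 genes by score 20 (13.3%) did. Chromosome 1 held 24 of the genes, chromosome 3 held 20, chromosome 5 held 19 and chromosome 8 held 4, which is 16%, 13.3%, 12.7% and 2.67% of the set against 14.3%, 13.4%, 8.31% and 6.59% of tested genes. Neighbouring IDs are not independent genes where they overlap or are near-identical copies, since strandedness is not given and reads could be shared between them.

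Some neighbours moved as 1. The ratio of OS03G0161400 to OS03G0161450 stayed between 0.658 and 1.14 over the 18 libraries in which both reached 5 FPKM. That of OS02G0647900 to OS02G0647950 stayed between 1.30 and 1.66 over 13 libraries. At the other end, the ratio of OS05G0190300 to OS05G0190500 ran from 0.0784 to 5.32 over 10 libraries, a 67.8-fold range. These pairs were picked after their ratios were seen. The steady ones had the most such libraries, and the last had the widest range. Other pairs held closer ratios over fewer libraries, such as OS05G0578600 to OS05G0578750 at 1.13 to 1.29 over 4 libraries.

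The run of 4, OS07G0142200, OS07G0142300, OS07G0142500 and OS07G0142600, was near 0 in LJ at S1 and S2. OS07G0142200 read 0 and 0.133 FPKM at S1, 0.130 and 0.460 FPKM at S2, 59.3 and 29.4 FPKM at S3, 1.33 and 3.11 FPKM at S4 and 13.3 and 12.8 FPKM at S5 in LJ. In blade the gene read 15.1 and 11.8 FPKM at S1, 59.8 and 12.4 FPKM at S2, 157 and 154 FPKM at S3, 0.1 and 0.768 FPKM at S4 and 1.57 and 0.666 FPKM at S5. OS07G0142300 also stood higher in LJ at S5, with 7.22 and 6.67 FPKM, than at S4, with 1.36 and 3.89 FPKM. In both, the S5 libraries lay above the S4 libraries. In the other two of the run they overlapped: OS07G0142500 read 0.936 and 1.58 FPKM at S4 and 1.05 and 2.13 FPKM at S5, and OS07G0142600 read 0 and 0.698 FPKM and 0 and 0.470 FPKM.

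Both LJ libraries at S5 lay above both at S4 in 9 genes, 6 of which had at least 1 FPKM in both S5 libraries, and below both in 94, against 45.4% and 22.3% of tested genes. In blade the S5 libraries were above in 18 genes and below in 84, against 44.6% and 19.7% of tested genes. At S2, the run's genes were lower in LJ by log2 differences of −4.47 ± 0.55, −4.01 ± 0.49, −3.37 ± 0.52 and −2.67 ± 0.67 (SE), in the order of the IDs. All 4 were called by limma (adjusted p = 7.32e-05, 7.65e-05, 0.000431 and 0.0112), and the last was not called without LJ replicate 1, at −2.60, or without blade replicate 1, at −1.08. The third was −2.25 without blade replicate 1, still called.

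**Figure D5:**
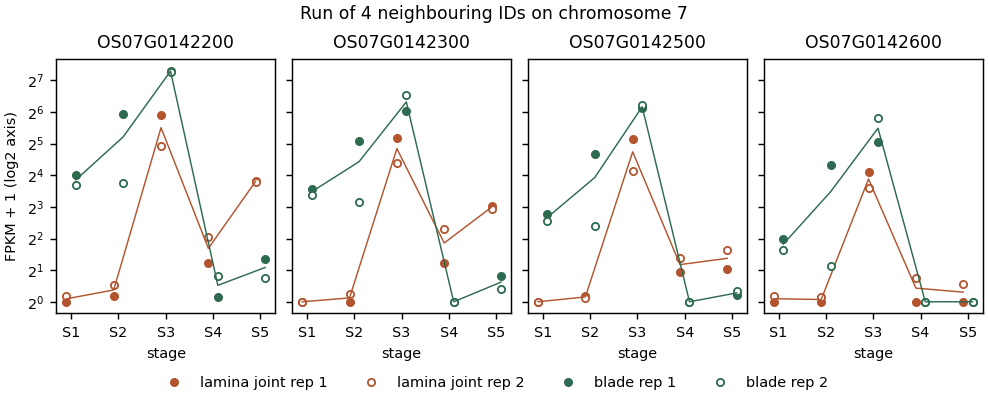
FPKM + 1 on a shared log2 axis by stage for the 4 neighbouring IDs; filled and open points are replicates 1 and 2, lines join group means, LJ orange and blade green. All 4 peak at S3 in both tissues, and OS07G0142200 and OS07G0142300 stand higher at S5 than at S4 in LJ.

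The runs of 3 differed in level and in slope. OS03G0861000, OS03G0861100 and OS03G0861200 read 11.5 and 8.49, 11.4 and 9.36, and 6.71 and 5.61 FPKM in LJ at S3, and 39.9 and 34.2, 16.1 and 19.4, and 8.99 and 12.7 FPKM in blade. Their S2 differences were −2.19 ± 0.31, −1.37 ± 0.31 and −1.18 ± 0.26 (SE; limma, adjusted p = 0.000239, 0.00582 and 0.00514). The second of them was not called without LJ replicate 2 at S2, at −1.07. OS11G0291450, OS11G0291475 and OS11G0291500 read 63.1 and 29.7, 38.8 and 34.7, and 3.01 and 6.79 FPKM in LJ at S3, and 107 and 64.1, 67.7 and 72.1, and 5.40 and 13.0 FPKM in blade. Their S2 differences were −4.85 ± 0.71, −4.96 ± 0.46 and −1.74 ± 0.38 (SE; limma, adjusted p = 0.000315, 7.5e-06 and 0.00504), and the last was not called without blade replicate 1 at S2, at −1.35.

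None of the 162 genes on 17 lists of pathways known in growing leaves was among the 150. The set is 150 of 26403 tested genes, a share at which few or none would be met, so nothing is read from this. Of the 162, 36 (22.2%) had a score above 0, against 10.5% of tested genes. The S2 counts of the lists below stand against 12.4% of tested genes called lower and 10.5% called higher. They are not separate from the marker counts above, as every marker is also on a list. The photosynthesis list holds the same genes as the green mesophyll markers. Of 6 primary wall synthases, 5 had a score above 0 and 4 were called lower in LJ at S2, with 0 higher. Of 12 secondary wall genes 7 had a score above 0, 7 were called lower and 1 higher, and of 6 aquaporins 4 had a score above 0, 2 were called lower and 0 higher. Of 19 lignin genes 3 had a score above 0, 11 were called lower and 0 higher, and of 11 expansins 3 had a score above 0 and of the 10 tested 4 were called lower and 0 higher. Of 11 auxin genes 3 had a score above 0, and of the 10 that were tested 2 were called lower and 1 higher. Scores above 0 were also held by 6 of 17 chlorophyll and chloroplast genes, 2 of 8 cuticle and wax genes, 2 of 14 gibberellin genes and 1 of 10 brassinosteroid genes. In that order, 2 of 17, 3 of 8, 3 of 12 tested and 0 of 10 were called lower in LJ at S2, and 1, 1, 0 and 1 higher. No gene of the photosynthesis, cell cycle, KNOX and leaf boundary, leaf angle, stomatal lineage, silicon or clock lists had a score above 0. At S2, 5 of 7 photosynthesis genes were called lower and 0 higher, but 1 of 11 cell cycle genes lower and 10 higher. For KNOX and leaf boundary it was 0 lower and 1 higher of 5 tested, for leaf angle 1 and 1 of 5, and for stomatal lineage 1 and 3 of 8. None of the 2 silicon genes tested and none of the 8 clock genes was called.

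PIP2-2 and CESA8 are named after their values were seen, as the best placed genes of their lists with a name that could be checked. PIP2-2, an aquaporin of the plasma membrane, ranked 257 and averaged 80.6 ± 54.5 FPKM in LJ and 126 ± 66.3 FPKM in blade at S3 (SD, n = 2 each). At S2 it averaged 6.14 ± 2.97 FPKM in LJ and 62.8 ± 41.5 FPKM in blade, a log2 difference of −3.05 ± 1.16 (SE; limma, adjusted p = 0.0737; 2.1e-05 with LJ and blade libraries paired). CESA8, a cellulose synthase of the primary wall, ranked 392 and averaged 47.3 ± 5.80 FPKM in LJ and 66.9 ± 17.4 FPKM in blade at S3 (SD, n = 2 each). At S2 CESA8 averaged 7.80 ± 2.21 FPKM in LJ and 31.7 ± 2.59 FPKM in blade, a log2 difference of −1.91 ± 0.39 (SE; limma, adjusted p = 0.0034).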

How the data were processed

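The values are FPKM as deposited, with a file per library. The authors named the tools Cufflinks 2.2.1, TopHat2 2.1.1, Trimmomatic 0.36 and CASAVA 1.8 and the build IRGSP-1.0, per the submitters' processing notes; per the labels' protocols, TRIzol RNA and an NEBNext Ultra kit. FPKM do not keep the read number, so the depth of a library is not known and values carry no counting interval. Each file lists 82632 features; 44803 without a rice gene ID were left out. The 26403 genes that reached 1 FPKM in 2 or more libraries were fitted on log2(FPKM + 1) with limma 3.58.1 (R 4.3.3; files were read with version 1.17.8 of data.table and with Python 3.11.15, pandas 2.3.3, numpy 2.4.6, matplotlib 3.10.9), with trend, all 10 groups together (10 residual and 4.09 prior degrees of freedom), and Benjamini-Hochberg adjustment over all tested genes. The fit was also run on simulated data with independent noise of equal spread in all groups. Those data lack the shared deviations of same-numbered libraries, so nothing is read from them.

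Across genes, replicate 1 minus replicate 2 in LJ correlated with the same difference in blade at 0.478, 0.213, 0.662, 0.774 and 0.516 at S1 to S5, so the numbers were read as pairs and a paired fit was run as an alternative. Members, lists and tests were chosen with earlier results of these data known. Named are the 2 highest scores, 2 genes each side of the threshold, the 2 largest S2 differences in each direction, the 2 highest S3 levels and the largest runs of neighbouring IDs, with exceptions stated in the text. No member was called higher in LJ, so this rule named none in that direction; the 2 with a higher LJ mean were named after their values were seen. Of 162 symbols on the lists, 82 fell on the same chromosome and within 2% of the same gene order in RefSeq (assembly ASM3414082v1), 58 were not in it and 22 lay elsewhere; only the first kind is named.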

Additional observations from a re-analysis of the deposited data

How the results depend on the processing

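With LJ and blade libraries of the same number as a replicate block, 138 of the 150 genes were called lower in LJ at S2, against 129 unpaired, and with an additive block 129 were; pairing ended no call of a named member. The other counts were 126 with a pseudocount of 0.1, 127 without a filter, with upper quartile scaling or with quantile normalization, and 127 of the 147 left by a filter at 5 FPKM. The share of all tested genes called is given above for the main and paired fits only. The other fits have none beside their counts. When the S2 groups alone were fitted, which leaves 2 residual degrees of freedom, 38 were called. Of the members whose called S2 difference is given above, only OS10G0150400, OS06G0148200 and OS11G0291475 kept the call in that fit. With 1 library left out, the library left in such a group is taken to vary as other groups do, so only differences are given. The median S2 difference of −2.64 became −3.99 with a pseudocount of 0.1, and −3.33 to −2.03 with 1 library left out. With a pseudocount of 0.1, the median LJ level at S3 stood 3.75 above the next highest stage, against 3.26, and 2.85 to 3.57 with 1 library left out. In blade it stood 1.54 above, and 0.86 to 1.96 with 1 library left out. At S1, the median LJ minus blade difference was −3.61 with a pseudocount of 0.1, −2.21 with upper quartile scaling, −2.17 with quantile normalization and −2.38 to −2.22 with 1 library left out. At S5 it was 0.75, 0.15, 0.11 and 0.20 to 0.25. At S4 it was 0.27 to 0.81 with 1 library left out. OS04G0554800, not called, reversed to −0.05 without LJ replicate 1 and to −0.88 without blade replicate 2 at S2, over a range of −0.88 to 1.15 with 1 library left out. Of the 150 genes, 108 were kept with a pseudocount of 0.1, 133 with either other scaling, 150 with the filter applied, 99 with S2 in the rule and 124 to 150 with 1 library left out. Causes were not tested. Depth is unknown, so low levels have no stated counting error.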
